A study of Xenopus laevis with 6 samples.

Results

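Heterotrimeric G proteins, the RGS proteins that switch them off, the arrestins and kinases that silence the receptors, and the phospholipase C beta enzymes they drive were measured as mRNA in the brain of *Xenopus laevis* tadpoles at 2 h after leptin. The members were chosen by gene name alone, as every non-control probe set with exactly 1 gene symbol in the array annotation whose symbol begins with that of a G protein α (*gnai*, *gnao*, *gnaq*, *gnas*, *gnat*, *gnaz*, *gnal*, or *gna* and a digit), β (*gnb* and a digit) or γ (*gng*) subunit, with *rgs* and a digit, with *arrb* or with *grk*, or is *plcb1*, *plcb3* or *plcb4*. This gave 90 probe sets of 66 genes among 32539 non-control probe sets, which carry 11303 gene names. A probe set is a group of short probes designed on a transcript sequence, and a gene can have several. The probes of some sets can match several transcripts. Many *X. laevis* genes exist as related L and S copies, and each copy is a gene of its own here. Tadpoles at NF stage 54 received i.c.v. either 0.6% saline as the vehicle control or rxLeptin, a recombinant frog leptin, at 20 ng/g BW. Brains were collected at 2 h, and a hypothalamic block that the labels describe as preoptic area, hypothalamus and pituitary was taken. RNA was pooled from 3 brains for each array, with 3 pools per treatment, so an array is a mean over animals and the spread between arrays is a spread between pools. Strain and sex are not given. In such whole-tissue RNA, fewer cells of a type and less RNA per cell cannot be told apart.

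G protein-coupled receptors, which serve most neuropeptides and many transmitters of the hypothalamus, act through a G protein made of an α subunit and a βγ dimer. The α subunit decides the route: the Gi/o class lowers cAMP, the Gs class raises it, and the Gq class drives phospholipase C beta, which releases calcium and activates protein kinase C. RGS proteins speed the hydrolysis of GTP by α subunits and so end the signal, whereas receptor kinases (GRKs) phosphorylate active receptors and arrestins then bind them, uncouple them and carry them into the cell. Leptin itself binds a cytokine receptor that does not couple to G proteins. These statements are background and not results of these arrays.

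The arrays differed in the control signals that bear on RNA integrity. The log2 signal of the *actin* control at the 3′ end of the transcript minus that at its middle was 2.83, 1.61 and 0.77 in the 3 saline pools, and 0.67, 0.60 and 0.66 in the 3 rxLeptin pools. The difference between the 3′ and 5′ ends was 2.71, 1.18 and 1.02 and then 1.11, 0.94 and 0.93 for *gapdh*, and 4.47, 3.72 and 3.05 and then 2.93, 2.83 and 3.24 for *ef1a*, so saline array 1 was highest in these measures. The *actin* difference between the 3′ and 5′ ends had the opposite order among the saline arrays, at 10.73, 10.90 and 11.16. In the rxLeptin arrays it was 11.10, 11.16 and 11.03. The *actin* difference between the 3′ end and the middle was higher on every saline array than on every rxLeptin array. That of *gapdh* was too, at 0.59, 0.18 and 0.14 after saline and 0.079, 0.067 and 0.028 after rxLeptin. That of *ef1a* overlapped between the groups, at 3.90, 3.16 and 2.42 and then 2.40, 2.29 and 2.51. The log2 values of the pituitary gene *pomc.L* lay between 13.14 and 13.80 on the 6 arrays, and those of the hypothalamic *pmch.L* between 9.47 and 9.61. The mean of the 20 probe sets of the pituitary list was 9.85 to 10.04 after saline and 9.84, 9.74 and 9.27 after rxLeptin, so every rxLeptin array was lower than every saline array, narrowly except for rxLeptin array 3. The means of the lists of neurons, radial glia, oligodendrocytes, microglia, erythrocytes, endothelium, ependyma and photoreceptors overlapped between the groups. Those of hypothalamic neuropeptides (9.28 to 9.46 after saline, 9.16 to 9.22 after rxLeptin) and of skeletal muscle (5.81 to 5.85 after saline, 5.69 to 5.72 after rxLeptin) were also lower after rxLeptin on every array. Where 14.6% of all tested probe sets were called higher and 9.91% lower, the calls in these lists were 4 higher and 1 lower of 12 tested for radial glia, 1 higher of 11 for neurons, 1 higher of 6 for erythrocytes, 1 higher and 2 lower of 6 for ependyma, 2 lower of 6 for endothelium, 1 lower of 5 for neuropeptides, 3 lower of 13 for skeletal muscle, 1 lower of 13 for photoreceptors and 2 lower of 11 for the pituitary. None was called among 5 of oligodendrocytes and 3 of microglia and leukocytes in limma. The part of RNA integrity or of tissue composition in the results below was not tested.

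Among the tested probe sets of G protein signaling genes, more were called higher than lower after rxLeptin. Every call among α and β subunits was a rise, whereas 4 of the 5 calls among γ subunits were falls. These are counts of probe sets. Both β calls were of *gnb1.S*. The γ falls came from 3 genes: *gng4.S*, *gng5.S* with 2 probe sets on a shared target sequence, and *gng7.L*, which was also called higher in another probe set. The difference in direction between subunits was not tested. Of the 90 probe sets, 51 of 41 genes varied enough to be tested, and 39, including every probe set of 25 genes, fell below the variance filter described under the processing. A probe set was called at a Benjamini-Hochberg adjusted p under 0.05 from limma over all 16269 tested probe sets, with arrays weighted by their reproducibility. By this test 14 member probe sets rose, 5 fell and 32 did not pass. The calls came from 11 genes with a rise and 4 with a fall, 1 of them, *gng7.L*, in both. Over all tested probe sets 24.5% were called, 14.6% as higher and 9.91% as lower, while among the members 37.3% were called, 27.5% as higher and 9.80% as lower. Over the 7688 tested probe sets with exactly 1 gene name, as every member has, 26.1% were called, 16.4% as higher and 9.65% as lower. The share of falls was thus close to both backgrounds, and the difference in rises was not tested. Tested members had a median log2 fold change of 0.078 (quartiles -0.25 and 0.43), against -0.044 (quartiles -0.26 and 0.25) over all tested probe sets. Over tested probe sets with 1 gene name it was -0.0017. Over all 90 members the median plain difference between group means was -0.022, against -0.027 over all 32539 non-control probe sets. In the 39 untested members this median was -0.071. Of these 39, 2 were higher and 8 lower on all rxLeptin arrays than on all saline arrays. The matching share over all untested probe sets was not computed.

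**Figure D1:**
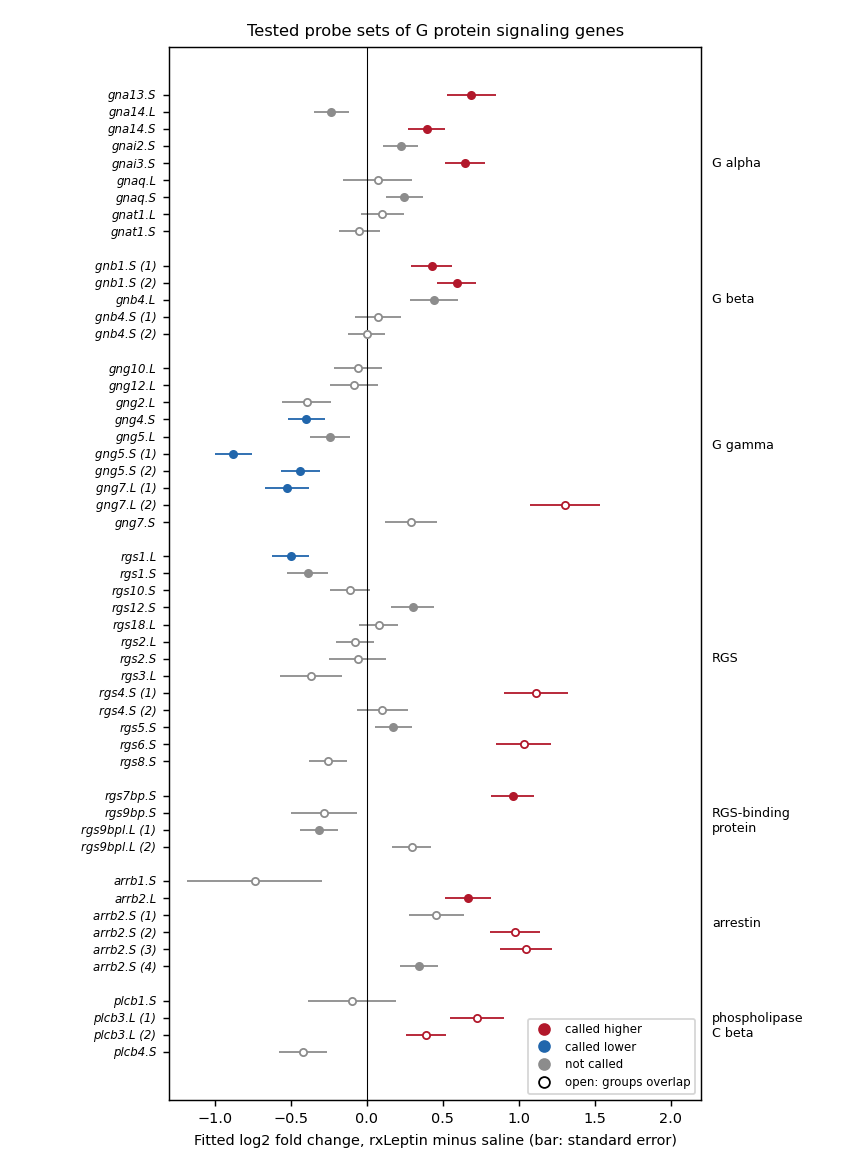
Fitted log2 fold change (rxLeptin minus saline, horizontal axis, with its standard error) of the 51 tested probe sets by role; numbers in parentheses tell apart probe sets of a gene, red marks the 14 probe sets called higher, blue the 5 called lower, grey those not called, and an open symbol means that the arrays of the groups overlapped. The α and β subunits have calls on the right side only, whereas 4 of the 5 called probe sets of γ subunits lie on the left. Both β calls are of *gnb1.S*, and the γ calls on the left come from 3 genes.

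These calls depended on single arrays. No member and no other probe set passed in limma without saline array 1 or without saline array 2. The same held with adjustment for the *actin* difference and without array weights. At an unadjusted limma p under 0.05, 6 of the 51 tested members were higher and 4 lower without saline array 1. Without saline array 2 these counts were 8 and 4, with the *actin* adjustment 2 and 4, and without array weights 15 and 8. Over all 16269 tested probe sets they were 1049 and 691, 1173 and 694, 343 and 350, and 2405 and 1857 in that order. With adjustment for the *actin* difference the fitted changes of the 14 members called higher shrank to between -0.022 and 0.53. Among them, *arrb2.L* was at 0.097, *gnai3.S* at 0.21 and *rgs7bp.S* at 0.53. Those of the 5 called lower lay between -0.26 and -0.73, with *gng4.S* at -0.41. Because every saline array had a larger *actin* difference than every rxLeptin array, this fit cannot fully separate the difference from treatment. In the unweighted limma fit, 13 of the 14 members called higher and all 5 called lower had an unadjusted p under 0.05. These members were picked by their p-values on the same arrays, so this count is no separate support for the calls. The matching share over all called probe sets was not computed. The groups did not overlap, meaning that all rxLeptin arrays lay on the same side of all saline arrays, in 7 of the members called higher and in all 5 called lower. Such a separation was thus present in 12 of the called members, where it was present in 2709 of all 3994 called probe sets. Among tested probe sets, called or not, it was present in 34.1% of all, in 36.2% of those with 1 gene name and in 43.1% of members. In the other 7 members called higher, the value of saline array 3 fell inside the rxLeptin range, as it did in 31.3% of all probe sets called higher and 27.6% of all called probe sets. In 12 of the 14, saline array 1, whose *actin* difference was the largest, was the lowest saline array, against 74.5% of all probe sets called higher. It was the highest saline array in 4 of the 5 members called lower, against 68.1% of all probe sets called lower. Without the variance filter, 6 members rose and 2 fell, 8 of 90, where 4.29% of all 32539 probe sets were called, 2.75% as higher and 1.55% as lower.

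**Figure D2:**
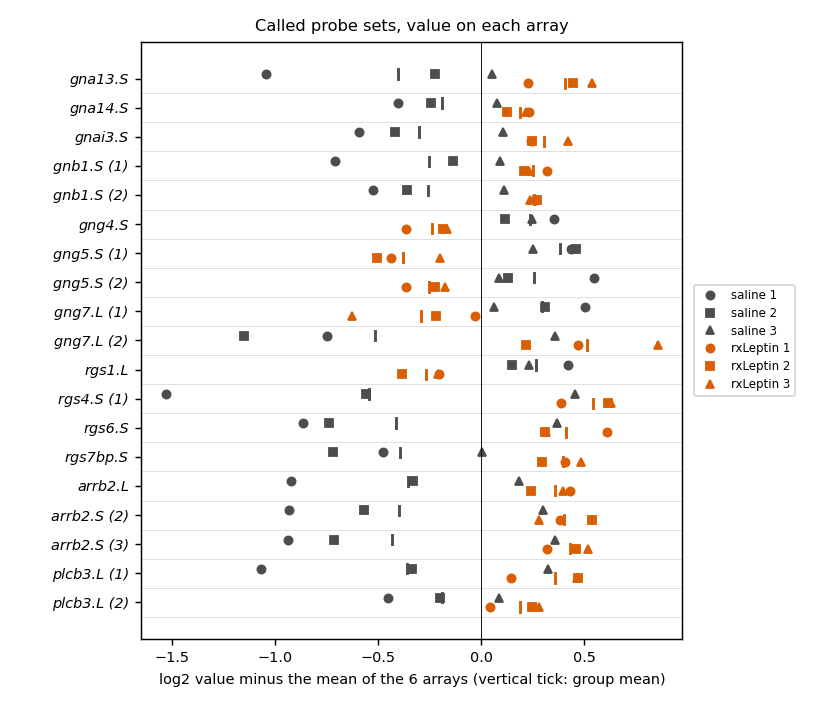
Log2 value on each array minus the mean of the 6 arrays (horizontal axis) for the 19 called probe sets, with saline in grey, rxLeptin in orange and a vertical tick at each group mean; the symbol gives the array number and numbers in parentheses tell apart probe sets of a gene. Saline array 1 (grey circle) lies farthest left in most rows called higher and saline array 3 (grey triangle) lies nearest to the rxLeptin arrays in them.

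Among the α subunits 20 probe sets of 17 genes were measured, 9 were tested, and 3 rose and none fell. Over all tested probe sets 14.6% were called higher and 9.91% lower, to be read beside this and the later counts by role. *gnai3.S*, an inhibitory α subunit of the Gi class, had log2 values of 10.34, 10.52 and 11.05 after saline and of 11.18, 11.19 and 11.36 after rxLeptin, here and below in the order of arrays 1 to 3. All rxLeptin arrays lay above all saline arrays, with saline array 3 close to them, and the rise was 0.65 (standard error 0.13, limma adjusted p = 0.00684), or 1.57-fold. Without saline array 1 it was 0.42. *gna13.S*, an α subunit outside the Gi/o, Gs and Gq classes, stood at 6.94, 7.76 and 8.03 after saline and at 8.21, 8.43 and 8.52 after rxLeptin. It too separated the groups and rose by 0.69 (standard error 0.16, adjusted p = 0.0124), and saline array 1 was far below the other saline arrays. *gna14.S*, of the Gq class, went from 6.17, 6.33 and 6.65 to 6.81, 6.70 and 6.79, a rise of 0.39 (standard error 0.12, adjusted p = 0.0357) in which saline array 3 came close to the lowest rxLeptin array, and 0.25 without saline array 1.

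The remaining α subunits did not pass or were too even to be tested. The L copy of *gna14* had values of 7.88, 7.76 and 7.79 after saline and 7.52, 7.52 and 7.71 after rxLeptin, with a log2 fold change of -0.23 (adjusted p = 0.141), so the copies lay on opposite sides of 0, but only the S copy was called. *gnai2.S*, another Gi subunit, lay at 10.95, 11.18 and 11.19 and then at 11.42, 11.36 and 11.38, and *gnaq.S* at 9.15, 9.55 and 9.38 and then at 9.68, 9.76 and 9.70. In both the groups were apart, with log2 fold changes of 0.22 (adjusted p = 0.149) and 0.25 (adjusted p = 0.137) that did not pass. *gnao1.S*, the abundant Go subunit of neurons, was below the variance filter, yet its rxLeptin arrays, 7.05, 6.98 and 7.25, lay above its saline arrays, 6.94, 6.69 and 6.87. The Gs subunit *gnas.L* and the related *gnal.L*, which in mammals serves olfactory and striatal receptors, were also below the filter, with plain differences between the group means of -0.056 and -0.13, and both copies of *gnai1* had differences of 0.044 and -0.032. The probe set of *gna11.S* that carries its name alone lay between 10.52 and 10.77 on the 6 arrays.

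For β subunits 5 of 8 probe sets were tested, all of *gnb1.S* and *gnb4*, and 2 were called, both of *gnb1.S* and both as rises. *gnb1* encodes a widely expressed β subunit that also serves rod photoreceptors. In the first of its probe sets the values were 10.68, 11.25 and 11.48 after saline and 11.71, 11.60 and 11.62 after rxLeptin, a rise of 0.43 (standard error 0.14, limma adjusted p = 0.0399). In the other they were 12.22, 12.38 and 12.85 and then 13.01, 13.01 and 12.98, a rise of 0.59 (standard error 0.13, adjusted p = 0.00837). In either probe set the rxLeptin arrays lay close together, and the saline arrays were spread widely with saline array 1 lowest. Without that array the changes were 0.27 and 0.39, and without saline array 3 the first was 0.67. *gnb4.L* moved alike, from 11.01, 11.89 and 11.90 to 12.23, 12.26 and 12.01 with no overlap, but its log2 fold change of 0.44 did not pass (adjusted p = 0.0584). *gnb4.S* had log2 fold changes of 0.074 and -0.0015 in its probe sets, and its groups overlapped in both. *gnb3*, a β subunit of cones, was below the filter in all 3 of its probe sets. A probe set of *gnb3.S* was lower after rxLeptin with the groups apart (plain difference -0.17), and the others overlapped.

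Among the γ subunits 10 of 13 probe sets were tested, of which 4 fell and 1 rose. *gng5.S*, a widely expressed γ subunit, fell in both of its tested probe sets. Its values were 7.11, 7.14 and 6.93 after saline and 6.24, 6.17 and 6.48 after rxLeptin in the first, which fell by 0.88 (standard error 0.12, limma adjusted p = 0.00166). In the next they were 10.81, 10.40 and 10.35 and then 9.90, 10.04 and 10.09, a fall of -0.44 (standard error 0.13, adjusted p = 0.0282). These probe sets share a target sequence. The second is of a kind whose probes can match several transcripts, so it may not read the S copy alone. The groups were apart in both, and in the first the 3 saline arrays lay together, so that the change was -0.80, -0.79 and -0.89 when saline array 1, 2 or 3 was left out. The third probe set of *gng5.S*, between 3.79 and 4.02 on all arrays, was below the filter. The L copy lay on the same side, at 12.11, 11.69 and 11.83 after saline and 11.35, 11.59 and 11.59 after rxLeptin with no overlap, and did not pass (log2 fold change -0.24, adjusted p = 0.169). *gng4.S*, a γ subunit found mainly in brain in mammals, had values of 6.30, 6.07 and 6.20 and then of 5.59, 5.77 and 5.79. It fell by 0.40 (standard error 0.12, adjusted p = 0.0355), and leaving out single arrays gave changes between -0.34 and -0.54, although the call was lost in all of these fits except that without rxLeptin array 3 (limma adjusted p of 0.459, 0.433 and 0.0761 without saline arrays 1, 2 and 3, and of 0.132 and 0.109 without rxLeptin arrays 1 and 2).

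*gng7.L*, which in mice serves dopamine and adenosine receptors of the striatum, was the only gene called in both directions. Its first probe set stood at 8.82, 8.63 and 8.37 after saline and at 8.28, 8.09 and 7.69 after rxLeptin and fell by 0.53 (standard error 0.15, adjusted p = 0.0238). Its other probe set stood at 6.82, 6.42 and 7.92 and then at 8.04, 7.78 and 8.42 and rose by 1.30 (standard error 0.23, adjusted p = 0.00349), which was the largest fitted change among the members. In the latter, saline array 3 lay within the rxLeptin range, and the log2 fold change was 0.57 without saline array 2 and 0.77 without saline array 1. The direction of *gng7.L* mRNA was therefore not settled by these probe sets. *gng7.S* had its highest value, 11.65, on saline array 3, with 10.79 and 10.49 on saline arrays 1 and 2, and did not pass (log2 fold change 0.29, adjusted p = 0.203). *gng2.L*, a brain-enriched γ subunit, had values of 10.32, 10.37 and 10.49 after saline and 10.34, 9.88 and 9.64 after rxLeptin (log2 fold change -0.40, adjusted p = 0.0842), so rxLeptin array 1 overlapped the saline arrays. *gng10.L* and *gng12.L* had log2 fold changes of -0.057 and -0.085 and did not pass, and *gng13.S* was below the filter.

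Among RGS proteins proper, 23 probe sets of 19 genes were measured and 13 were tested, of which 2 rose, 1 fell and 10 did not pass. These shares, 15.4% higher and 7.69% lower, were close to the 14.6% and 9.91% over all tested probe sets. *rgs1.L*, which in mammals restrains receptors of lymphocytes and other immune cells, had values of 4.73, 4.46 and 4.54 after saline and of 4.10, 3.93 and 4.10 after rxLeptin. It fell by 0.50 (standard error 0.12, limma adjusted p = 0.0147) with the groups apart. Its other probe set, between 3.75 and 4.03 and too even to be tested, was also apart and lower after rxLeptin. Both probe sets lay far below the array medians of 7.31 to 7.35, and whether such low signals reflect expression was not tested. *rgs1.S* lay in the same order, at 5.19, 4.81 and 4.83 and then at 4.35, 4.46 and 4.80, but missed the threshold (log2 fold change -0.39, adjusted p = 0.055). The mean of the microglia and leukocyte list was 6.19 to 6.31 after saline and 6.21 to 6.35 after rxLeptin, with none of its 3 tested probe sets called by limma.

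*rgs4.S*, an RGS protein abundant in forebrain neurons of mammals, had values of 7.52, 8.49 and 9.50 after saline and of 9.43, 9.66 and 9.68 after rxLeptin in a probe set that rose by 1.11 (standard error 0.21, adjusted p = 0.00492). The saline arrays were spread widely, saline array 3 lay within the rxLeptin range, and without saline array 1 the log2 fold change was 0.60. Another probe set of *rgs4.S* had values of 10.22, 10.85 and 11.23 and then of 10.85, 10.84 and 11.40, with a log2 fold change of 0.10 (adjusted p = 0.647). *rgs6.S*, of the RGS subfamily that pairs with an atypical β subunit in neurons, had values of 5.69, 5.82 and 6.93 and then of 7.17, 6.87 and 6.87. It rose by 1.03 (standard error 0.18, adjusted p = 0.00359), and again saline array 3 was in the rxLeptin range and leaving out saline array 1 or 2 gave 0.58 and 0.65. *rgs6.L* had values of 11.86, 11.87 and 11.86 after saline and was below the filter.

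*rgs7bp.S*, which in mammals anchors RGS proteins of that subfamily to the membrane, separated the groups. Its values were 5.22, 4.98 and 5.70 after saline and 6.10, 5.99 and 6.18 after rxLeptin, and it rose by 0.96 (standard error 0.14, adjusted p = 0.00205), or 1.94-fold. Leaving out saline array 1, 2 or 3 gave 0.71, 0.59 and 0.96. All 6 values of *rgs7bp.S* lay below the array medians of 7.31 to 7.35. Those of other called members, among them *gng4.S*, *gna14.S* and *rgs6.S*, did so too. Whether such low signals reflect expression was not tested. The related genes *rgs9bp.S* and *rgs9bpl.L*, named for an anchor of RGS9 in the retina, did not pass, and the tested probe sets of *rgs9bpl.L* had log2 fold changes of -0.31 and 0.30.

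The other RGS genes tested were *rgs2*, which acts mainly on Gq, *rgs3.L*, *rgs5.S*, *rgs8.S*, *rgs10.S*, *rgs12.S* and *rgs18.L*, and none passed. *rgs2.S* had values of 7.29, 7.82 and 8.49 after saline and 7.67, 7.68 and 8.37 after rxLeptin, so its arrays differed widely within each group and its log2 fold change was -0.060. *rgs12.S* and *rgs5.S*, the latter a gene of pericytes in mammals, were apart between the groups, with log2 fold changes of 0.30 (adjusted p = 0.118) and 0.17 (adjusted p = 0.278). *rgs10.L*, *rgs11.L*, *rgs14.L*, *rgs19* and *rgs20.L* were below the filter. Of these, *rgs10.L*, *rgs19.S* and a probe set of *rgs11.L* were lower after rxLeptin with the groups apart. Their plain differences were -0.13, -0.22 and -0.28, and that of the other *rgs11.L* probe set, which overlapped, was 0.11.

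Arrestins were measured by 8 probe sets, and 3 of 6 tested ones rose, all of *arrb2*, which encodes β-arrestin 2. *arrb2.L* had values of 8.50, 9.09 and 9.60 after saline and 9.85, 9.66 and 9.82 after rxLeptin. The groups did not overlap, and the rise was 0.67 (standard error 0.15, limma adjusted p = 0.0113), or 0.39 without saline array 1. The other probe set of *arrb2.L* was below the filter, with overlapping groups at 5.95, 5.90 and 5.94 and then at 6.14, 6.11 and 5.78, and a plain difference of 0.080. The S copy has 5 probe sets. The pair called had values of 5.84, 6.20 and 7.07 and then of 7.15, 7.31 and 7.05, with a rise of 0.98 (standard error 0.16, adjusted p = 0.00304), and of 5.88, 6.10 and 7.18 and then of 7.14, 7.28 and 7.33, with a rise of 1.05 (standard error 0.17, adjusted p = 0.00278). In both, saline array 3 lay inside the rxLeptin range and the other saline arrays lay well below it, and without saline array 1 the changes were 0.60 and 0.61. The remaining S probe sets had smaller differences. Among them, a probe set was apart between the groups at 8.17, 8.44 and 8.68 and then at 8.69, 8.80 and 8.89 (log2 fold change 0.34, adjusted p = 0.0588). Another overlapped at 8.39, 7.84 and 7.78 and then at 7.95, 8.55 and 8.41 (0.46, adjusted p = 0.0781). The last, below the filter, lay at 9.73, 9.80 and 9.88 and then at 9.93, 9.97 and 10.05. Its plain difference between group means of 0.18 compares with 0.86 in the called probe set with the largest rise, so the size of the change of *arrb2.S* mRNA differed with the probe set. The probe sets that are apart without a call, below the filter and called with the largest rise were designed on the same target sequence and are not independent measurements. The first and last of these are of a kind whose probes can match several transcripts.

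**Figure D3:**
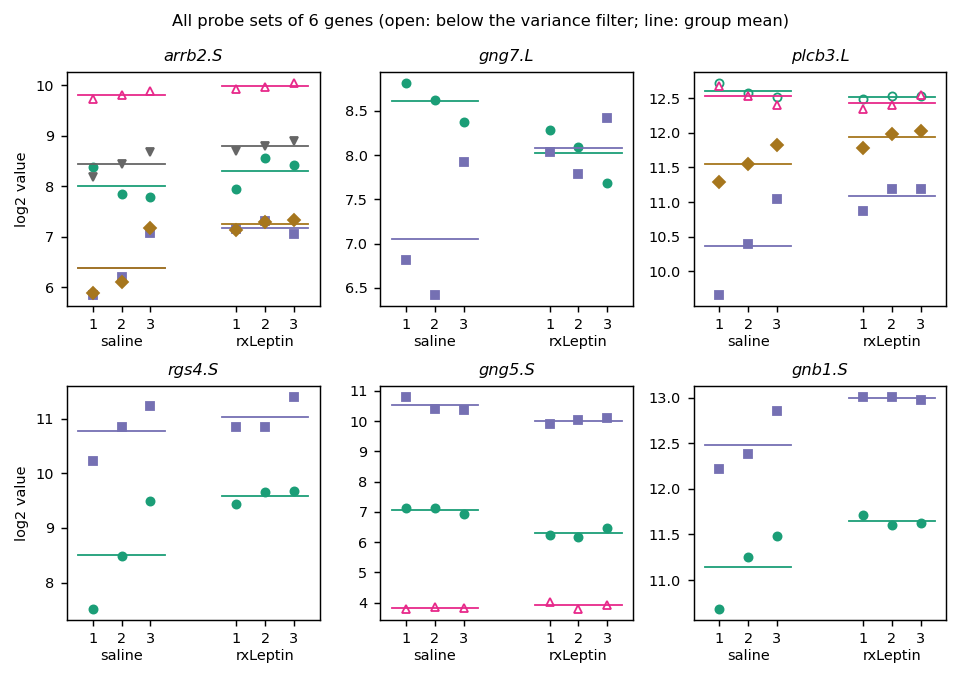
Log2 values (vertical axis) of every probe set of 6 genes on the saline and rxLeptin arrays 1 to 3, with a colour and symbol for each probe set, open symbols for those below the variance filter and a line at each group mean. The probe sets of *gnb1.S* move together, those of *gng7.L* move in opposite directions, those of *plcb3.L* differ in direction and size, and those of *arrb2.S* and *rgs4.S* differ in the size of the change.

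Of the 18 member genes with more than 1 probe set, 8 had a call, and in *gnb1.S* alone was every probe set called, in the same direction. In 6 a called probe set stood beside others that were not called or not tested, and *gng7.L* had opposite calls. Of 16 genes with both copies among the members, 9 had tested probe sets of both, and *arrb2* alone had calls in both copies, all higher. The matching shares over all genes of the array were not computed. Whether these counts are usual for the array is therefore not known.

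*arrb1.S*, which encodes β-arrestin 1, had values of 8.88, 9.23 and 9.01 after saline and of 9.17, 8.55 and 6.24 after rxLeptin. It did not pass (log2 fold change -0.74, standard error 0.44, adjusted p = 0.207), and without rxLeptin array 3 the log2 fold change was -0.30. The same array was low by at least 0.5 on the log2 scale below all other arrays in 3 further tested members, a limit chosen after the values were seen. *rgs3.L*, an RGS protein of Gi and Gq signals, had values of 9.08, 9.20 and 9.03 and then of 9.07, 8.86 and 7.93. *plcb1.S*, a phospholipase C beta, stood at 8.83, 9.57 and 9.64 and then at 9.98, 9.36 and 8.21, and *plcb4.S* at 5.43, 5.49 and 5.09 and then at 5.13, 5.09 and 4.47. These 4 of 51 tested members are 7.84%, where 3.05% of all tested probe sets met the limit. On that array the mean of the pituitary list was lowest as well, with *gh1.S*, growth hormone, at 12.66 against 13.29 to 13.62 elsewhere. Not every gene of the list followed. *scg2.L* was highest there, at 13.41, and *scg2.S* and *chga.S* lay within the range of the other arrays. The control signals were mixed. *ef1a* had its highest difference between the 3′ and 5′ ends among the rxLeptin arrays, 3.24, but that of *gapdh*, 0.927, was the lowest of all arrays. The *actin* difference between the 3′ end and the middle, 0.661, lay between those of the other rxLeptin arrays. Whether the pituitary share of the dissected block or RNA integrity bears on these 4 genes was not tested.

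**Figure D4:**
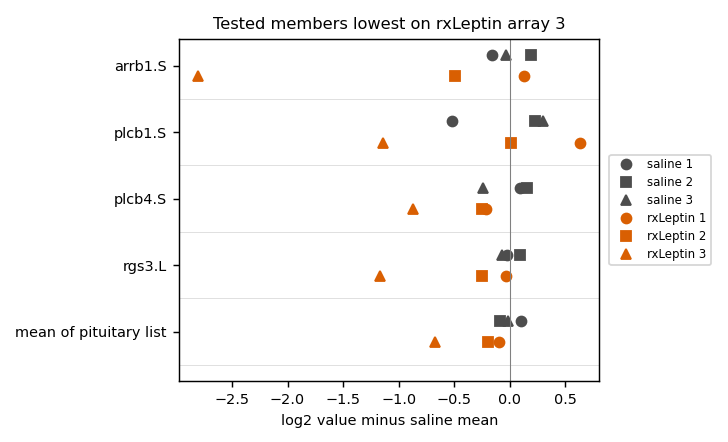
Log2 value minus the saline mean (horizontal axis) on each array for the 4 tested members that were lowest on rxLeptin array 3 by at least 0.5, and for the mean of the 20 probe sets of the pituitary list, with saline in grey and rxLeptin in orange. The orange triangle, rxLeptin array 3, lies to the left of every other array in each row.

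No receptor kinase probe set varied enough to be tested. The 7 probe sets of *grk1*, a kinase of photoreceptors, *grk4* and *grk6.S*, which act on many receptors, had plain differences between -0.097 and 0.058, and the groups overlapped in all of them. *grk6.S* had values of 8.31, 8.14 and 8.12 after saline and 8.29, 8.19 and 8.17 after rxLeptin, and the probe sets of *grk4.L* lay between 8.79 and 9.52. In the limma fit without the filter their log2 fold changes lay between -0.15 and 0.060, with standard errors of 0.079 to 0.097 and adjusted p-values of 0.319 to 0.786.

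Phospholipase C beta, the effector of Gq, was measured by 6 probe sets. *plcb3.L* rose in both of its tested probe sets, which stood at 9.66, 10.39 and 11.05 after saline and at 10.87, 11.19 and 11.19 after rxLeptin (rise 0.73, standard error 0.18, limma adjusted p = 0.015) and at 11.29, 11.54 and 11.83 and then at 11.79, 11.99 and 12.02 (rise 0.39, standard error 0.13, adjusted p = 0.0452). Saline array 3 lay within the rxLeptin range in both, and both were designed on the same target sequence. Both are of a kind whose probes can match several transcripts. Without saline array 1 the changes were 0.38 and 0.25. The further pair of *plcb3.L* probe sets was below the filter, at 12.51 to 12.72 after saline and 12.49 to 12.53 after rxLeptin in the first, with plain differences of -0.085 and -0.10, so the gene's probe sets did not share a direction. Neither *plcb4.S* (log2 fold change -0.42, adjusted p = 0.0667) nor *plcb1.S* (-0.097, adjusted p = 0.81) passed.

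Members that serve only photoreceptors were not called. The rod α subunit *gnat1* lay between 5.19 and 6.25 over its 3 probe sets, and its tested probe sets had log2 fold changes of 0.10 in *gnat1.L* and -0.048 in *gnat1.S*, neither of which passed. The cone subunit *gnat2.S* was below the filter, with its groups apart at 6.78, 6.57 and 6.44 and then at 6.12, 6.39 and 6.42. The rod γ subunit *gngt1.L* had values of 10.66, 9.89 and 9.93 after saline and 9.51, 9.75 and 9.84 after rxLeptin. Its groups were apart too, but with saline array 1 alone far from the others it was below the filter, and without the filter its log2 fold change was -0.31 (adjusted p = 0.241). The 33 probe sets of the photoreceptor and pineal list had a mean of 5.23 to 5.44 after saline and 5.17 to 5.26 after rxLeptin, 17 of its 25 genes were matched, and 0 of its 13 tested probe sets were called higher and 1 lower in limma.

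Among other genes of these routes, most calls in the calcium route were rises, and the cAMP route had a single call. The shares over all tested probe sets, to be read beside these counts, were 14.6% higher and 9.91% lower. In a list of genes of inositol phosphates, calcium and protein kinase C, 17 of 31 tested probe sets rose and 1 fell, but they came from only 6 and 1 of 15 tested genes, and 8 of the rises were probe sets of *camk2g.S*, a subunit of a calcium-dependent kinase. In 11 of the 18 called probe sets saline array 3 lay in the rxLeptin range. The calcineurin genes *ppp3ca.L* and *ppp3r1.S* rose in both of their called probe sets without overlap, while the called probe sets of *ppp3ca.S* and *ppp3cc.L* overlapped, and another of *ppp3cc.L* was lower with the groups apart but not called (log2 fold change -0.27, adjusted p = 0.0865). *ppp3ca.L* went from 8.85, 9.28 and 10.09 to 10.44, 10.15 and 10.39 in the probe set with the larger rise, 0.95 (limma adjusted p = 0.00391), and *ppp3r1.S* from 5.96, 6.08 and 6.54 to 6.58, 6.78 and 6.68, a rise of 0.59 (adjusted p = 0.00984). Among genes of cAMP and protein kinase A none of 11 tested probe sets was called higher and 1 (9.09%) was called lower. It was of *prkar2b.S*, a regulatory subunit, at 6.55, 6.15 and 6.11 and then at 5.81, 5.76 and 5.96 (log2 fold change -0.39, limma adjusted p = 0.039). The groups did not overlap in 3 tested probe sets of this list that were higher and 3 that were lower. This was 54.5% of its tested probe sets, against 32.3% in the calcium list and 34.1% over all tested probe sets.

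Of 6 tested probe sets of cyclic nucleotide phosphodiesterases, 2 rose, both of *pde4b.S*, which degrades cAMP in brain and immune cells, by 0.55 and 0.45. A cone phosphodiesterase subunit, *pde6h.S*, fell by 0.63. Of 11 tested probe sets of genes that answer cAMP or calcium, 4 rose and none fell: *fos.S*, *junb.S*, *dusp1.S* and the neurotrophin *bdnf.S*. *bdnf.S* went from 8.71, 9.30 and 9.51 to 9.87, 9.77 and 10.22, a rise of 0.61 (standard error 0.15, adjusted p = 0.0153), and *fos.S* from 9.44, 9.58 and 10.02 to 10.08, 10.03 and 10.50, a rise of 0.50 (standard error 0.14, adjusted p = 0.0285). Both were without overlap, with saline array 3 nearest to the rxLeptin arrays. Of 10 tested probe sets of G protein chaperones, exchange factors and other regulators, 2 rose. Both were of *nsf.L*, an ATPase of vesicle fusion that also binds arrestin. In a list of channels regulated by G proteins, the only tested probe set, of the calcium channel gene *cacna1a.S*, did not pass. The median log2 fold change was 0.41 for the calcium list, -0.23 for the cAMP list, -0.057 for the phosphodiesterases, 0.28 for the response genes and 0.13 for the regulators, against -0.044 over all tested probe sets. Without saline array 1, saline array 2 or the array weights none of these calls remained.

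**Figure D5:**
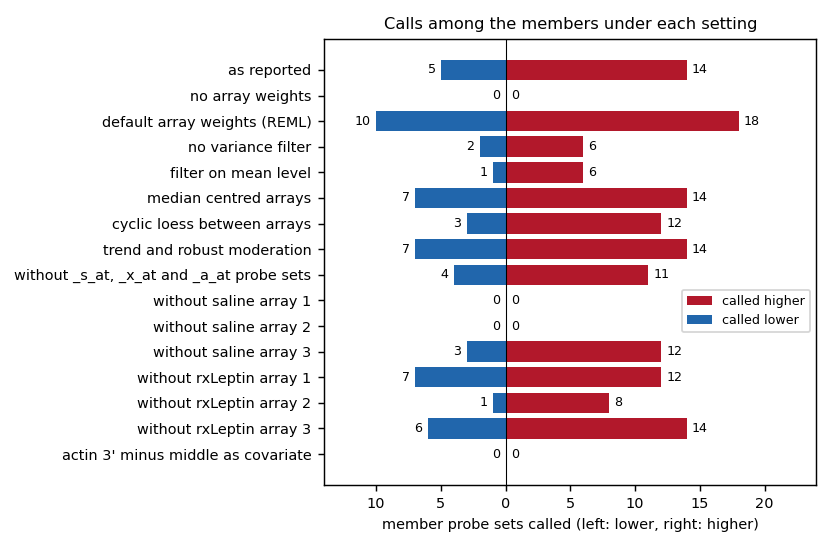
Number of member probe sets called higher (red, to the right) and lower (blue, to the left) under each setting of the test, with 14 and 5 as reported. No member was called without array weights, without saline array 1, without saline array 2 or with adjustment for the *actin* difference.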

How the data were processed

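The log2 values deposited by the authors come from RMA in the affy package, a method that subtracts background, equalises the arrays' distributions and summarises the probes of each set. Scanner files were not used here. The methods name genefilter, without cut-offs, and limma with array weights at a false-discovery rate under 0.05. Here 96 control probe sets of 32635 were removed, and 16269 probe sets were kept whose interquartile range across arrays exceeded 0.173, the median. Treatment was the only term of the model (limma 3.58.1, R 4.3.3). Array weights were estimated gene by gene, the default of the limma release the methods name, because the newer default (REML) was reported by the tool not to converge. The saline arrays had weights of 0.37, 2.28 and 0.34 and the rxLeptin arrays had weights of 1.58, 3.09 and 0.71, so fitted changes lean on saline array 2 and rxLeptin array 2. Standard errors are of the moderated fit, and adjusted p-values are Benjamini-Hochberg over all tested probe sets.

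All 90 member probe sets were matched by gene ID in a table of the *X. laevis* v10.1 assembly, used for names only. The variance filter favours probe sets that differ between groups, so counts among tested members do not speak for all members. Array numbers follow accession order within a treatment. Apart from the low signals of *rgs1.L*, *rgs7bp.S* and the members named with it, values of different probe sets were not compared as levels. The number of arrays limits precision, and an exact test of 3 against 3 cannot go below p = 0.1. Genes named by rule were called members without overlap (up to 4 per role and direction), all tested arrestins and phospholipases C beta, and genes with opposite calls; other members were chosen after their values were seen. The members, lists and tests were chosen with earlier results of these data known. The fit was tested on simulated data with known changes. Figures were drawn with matplotlib 3.10.9. No promoter or protein sequences were used here.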

Additional observations from a re-analysis of the deposited data

How the results depend on the processing

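Depth does not apply to these arrays, and 3 pools per treatment limit what can be detected. Over all probe sets 2382 were called higher and 1612 lower, and among members 14 and 5. Without array weights all 4 counts were 0 (unadjusted limma p under 0.05 in 2405, 1857, 15 and 8), as they were with the *actin* difference as a covariate (343, 350, 2 and 4). REML weights gave 3759, 3766, 18 and 10, no variance filter 894, 503, 6 and 2, and a filter on the mean level 805, 440, 6 and 1. Cyclic loess gave 1918 and 830 over all probe sets and 12 and 3 among members. Leaving out single arrays gave 0 to 2265, 0 to 1525, 0 to 14 and 0 to 7, with 0 without saline array 1 (unadjusted 1049, 691, 6 and 4) and without saline array 2 (1173, 694, 8 and 4), and 1141, 464, 8 and 1 without rxLeptin array 2. Without saline array 3 the falls were 676 and 3. Median centring, trended and robust moderation, and omission of shared-transcript probe sets kept each count within 1.5 times. Under the *actin* covariate 1 called probe set, of *plcb3.L*, turned sign, to -0.022, and 8 members without a call also moved across 0, among them *gnaq.L* (0.073 to -0.18) and *gng12.L* (-0.085 to 0.22). The causes were not tested. No paired analysis was possible because the labels give no replicate numbers.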

Other observations

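Further probe sets of the same families carry more than 1 gene symbol, usually both copies of a gene, and were outside the members. There were 7. The probe set shared by *gna11.L* and *gna11.S*, α subunits of the Gq class, had log2 values of 5.23, 5.43 and 7.38 after saline and of 7.41, 7.35 and 7.55 after rxLeptin. Its rise was 1.76 (standard error 0.25, limma adjusted p = 0.00166), larger than that of any member, but saline array 3 lay within the rxLeptin range, and the change was 0.98 without saline array 1 and 1.08 without saline array 2. The *gna11.S* probe set among the members, at 10.58, 10.56 and 10.52 and then at 10.52, 10.54 and 10.77, did not share this pattern. The probe set shared by the copies of *gna14* had values of 4.55, 4.72 and 5.23 and then of 5.38, 5.16 and 5.25, a rise of 0.48 (standard error 0.14, adjusted p = 0.026), with overlap again through saline array 3. The shared probe sets of *gnaq* and *grk6* did not pass (log2 fold changes -0.037 and -0.12), and those of *gnas*, *gnal* and *grk1* were below the variance filter, with *gnas* at 9.33, 9.31 and 9.19 and then at 9.35, 9.40 and 9.37.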
